A study of Homo sapiens with 8 samples.

Results

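This account follows 10 genes at the head of TNF signalling: the cytokine gene TNF, its receptor gene TNFRSF1A, the death-domain adapter genes TRADD and FADD, the TRAF genes TRAF1, TRAF3, TRAF5 and TRAF6, the ubiquitin ligase gene BIRC2 and the kinase gene MAP3K14. They were taken from the 22395 genes that had at least 1 probe set naming a single gene in the platform annotation, with the probe set of highest mean used for each. All 10 were among the 16986 genes tested, for which at least 1 of the 8 arrays had to exceed 2.57 (log2), the middle value of the whole table. RNA was measured in U-CH1 and MUG-Chor1, established human cell lines grown from chordomas, which are bone tumours of the skull base and spine that resemble the embryonic notochord. Each line gave 3 control arrays, from monolayers grown under normal conditions, and 1 array from monolayers that received human recombinant TNF-α at 10 ng/mL, added 3 times a week for 1 week. Both arms of both lines were kept on gelatin in medium containing fetal bovine serum. How long the controls were grown, and whether they were separate cultures, is not in the labels, so the p-values below measure spread among these arrays that may be technical. A line is 1 tumour's cells, and the treated arm of a line is 1 array with no replicate.

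TNF-α is made as a membrane protein, is shed by a protease and binds TNF receptor 1, the product of TNFRSF1A, whose death domain recruits TRADD. TRADD brings in TRAF adapters and the cIAP ubiquitin ligases, one of which is the product of BIRC2, and the ubiquitin chains built there activate the kinases that release NF-kB. FADD joins a later, cytoplasmic complex that can activate caspase-8. A slower, non-canonical branch depends on the kinase NIK, the product of MAP3K14, which TRAF3 and the cIAPs keep low by marking it for degradation. TRAF1 and BIRC2's relatives are well-known NF-kB targets in many cell types.

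Chordoma identity and the state of the arrays were checked first. TBXT, which encodes brachyury, read 9.14 to 9.75 on U-CH1 controls and 9.40 to 9.46 on MUG-Chor1 controls, against 8.80 and 7.51 on the TNF-α arrays of these lines. Of 8 chordoma markers, 6 or 7 were above the middle value of the table on each array. Those not above it included EPCAM (1.69 to 2.86), except on U-CH1 control 1, and S100B on U-CH1 controls (1.94 to 2.32). PTPRC, the pan-leukocyte marker, read 0.932 to 1.23 on all 8 arrays, below the middle value of the table. CD68, a macrophage marker, read 7.67 to 9.17, and 2 to 4 of 8 leukocyte markers were above that middle value on each array. Of 5 leukocyte markers tested, 2 rose across both lines, where 1.55% of genes tested were called higher: CD68, a macrophage marker, 1.79-fold (limma adjusted p = 0.0485) and ITGAM, a myeloid integrin gene, 1.77-fold (limma adjusted p = 0.0448). Of 8 chordoma markers, 2 (TBXT and KRT19) fell across both lines, where 0.93% of genes tested were called lower. By line, 4 of the 8 fell in MUG-Chor1 (1.41% of genes tested lower) and 0 in U-CH1 (0.359%; limma, with 2 of the 8 lower at unadjusted p under 0.05). Of 8 fibroblast markers, 1 (DPP4) rose across both lines, 4 rose in MUG-Chor1 (1.47% of genes tested higher) and 0 in U-CH1 (0.913%; limma, with 1 of the 8 higher at unadjusted p under 0.05). Of the fibroblast markers called in MUG-Chor1, FAP read 1.63 to 2.29 on all controls and 1.75 on the U-CH1 TNF-α array. These readings lay below the middle value of the table, so only the MUG-Chor1 TNF-α array (5.71) brought FAP into the tested set. The summed log2 values of the chordoma list were 51.8 to 53.7 on MUG-Chor1 controls and 40.3 on its TNF-α array. Those of the fibroblast list, which includes FAP, were 28.7 to 34.0 and 41.6. In U-CH1 the chordoma sums were 51.5 to 54.5 on controls and 49.4 with TNF-α, and the fibroblast sums 30.9 to 32.4 and 33.9. Sums for 8 leukocyte markers were 22.4 to 22.9 on U-CH1 controls and 25.3 with TNF-α, and 22.7 to 24.1 and 24.0 in MUG-Chor1. Those for 6 endothelial markers were 18.8 to 19.8 and 19.2, and 20.6 to 22.0 and 17.7. The part of these shifts in the results below was not tested, and in bulk RNA fewer cells of a type and less RNA per cell cannot be told apart. MUG-Chor1 control 3 correlated least with the other controls of its line (mean r of 0.960 over the genes tested), so calls that turn on it are given with and without it.

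TRAF1, TRAF3 and BIRC2 rose across both lines, and their promoter windows are shown for that reason. Each line below gives the 250 bases before the annotated start of the RefSeq transcript, 5′ to 3′, from the RefSeq promoter table of build GRCh38.p14. The windows lie at chr9:120929172-120929421 (minus strand) for TRAF1, chr14:102777199-102777448 (plus strand) for TRAF3 and chr11:102346964-102347213 (plus strand) for BIRC2. Capitals mark a match to the NF-kB motif kappaB, searched on both strands.
TRAF1: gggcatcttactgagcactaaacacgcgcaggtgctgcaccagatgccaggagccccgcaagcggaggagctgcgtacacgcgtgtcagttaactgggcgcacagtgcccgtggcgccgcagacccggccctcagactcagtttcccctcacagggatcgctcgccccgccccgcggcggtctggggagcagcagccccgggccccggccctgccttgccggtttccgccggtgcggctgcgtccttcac
TRAF3: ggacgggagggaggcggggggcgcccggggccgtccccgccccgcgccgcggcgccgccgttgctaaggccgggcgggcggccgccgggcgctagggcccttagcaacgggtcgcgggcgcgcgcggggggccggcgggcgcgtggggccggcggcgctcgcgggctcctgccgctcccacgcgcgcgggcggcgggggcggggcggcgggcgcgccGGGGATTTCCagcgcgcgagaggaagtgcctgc
BIRC2: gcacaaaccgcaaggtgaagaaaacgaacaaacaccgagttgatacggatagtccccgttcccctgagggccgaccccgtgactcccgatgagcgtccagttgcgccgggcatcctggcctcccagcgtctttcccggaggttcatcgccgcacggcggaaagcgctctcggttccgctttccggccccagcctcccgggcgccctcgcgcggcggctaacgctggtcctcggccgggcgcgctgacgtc

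TRAF3 held 1 match, on the strand of the gene, beginning 33 bases before the start. RefSeq windows that also cover 50 bases after the start were found for 9 of the 10 genes, 14 windows in all, and this was the only match among them. Of all 35116 windows of that length in the table, 5.91% held a match, so 1 of 14 (7.14%) is near the share of promoters in general. A match is a string of letters and not a site shown to be used, and other stretches of these genes were not searched. TRADD has no entry there. TRAF1 and TRAF5 each have 3 annotated starts and BIRC2 has 2, and the first listed of TRAF1 and of BIRC2 is printed.

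What TNF-α did to the 10 genes was asked in an additive model of line and treatment over all 8 arrays (limma, two-sided, Benjamini-Hochberg adjustment over the 16986 genes, threshold of adjusted p 0.05). With 1 TNF-α array a line, leaving out either of them gives the same result as the fit of the other line given further below. Such an omission is therefore no separate check. TRAF1, TRAF3 and BIRC2 rose and none of the 10 fell. That is 3 of 10 called, where 2.48% of all genes tested were called in either direction with 1.55% higher and 0.93% lower. The median log2 fold change of the 10 was 0.73, against 0.05 for all genes tested. Another 3 of them (TRADD, MAP3K14 and FADD) had an unadjusted p under 0.05, all higher, which makes 6 of 10 where 15.3% of genes tested passed in either direction. The 10 were chosen with earlier results of these data known, so these shares and the median describe the set and do not test it.

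**Figure D1:**
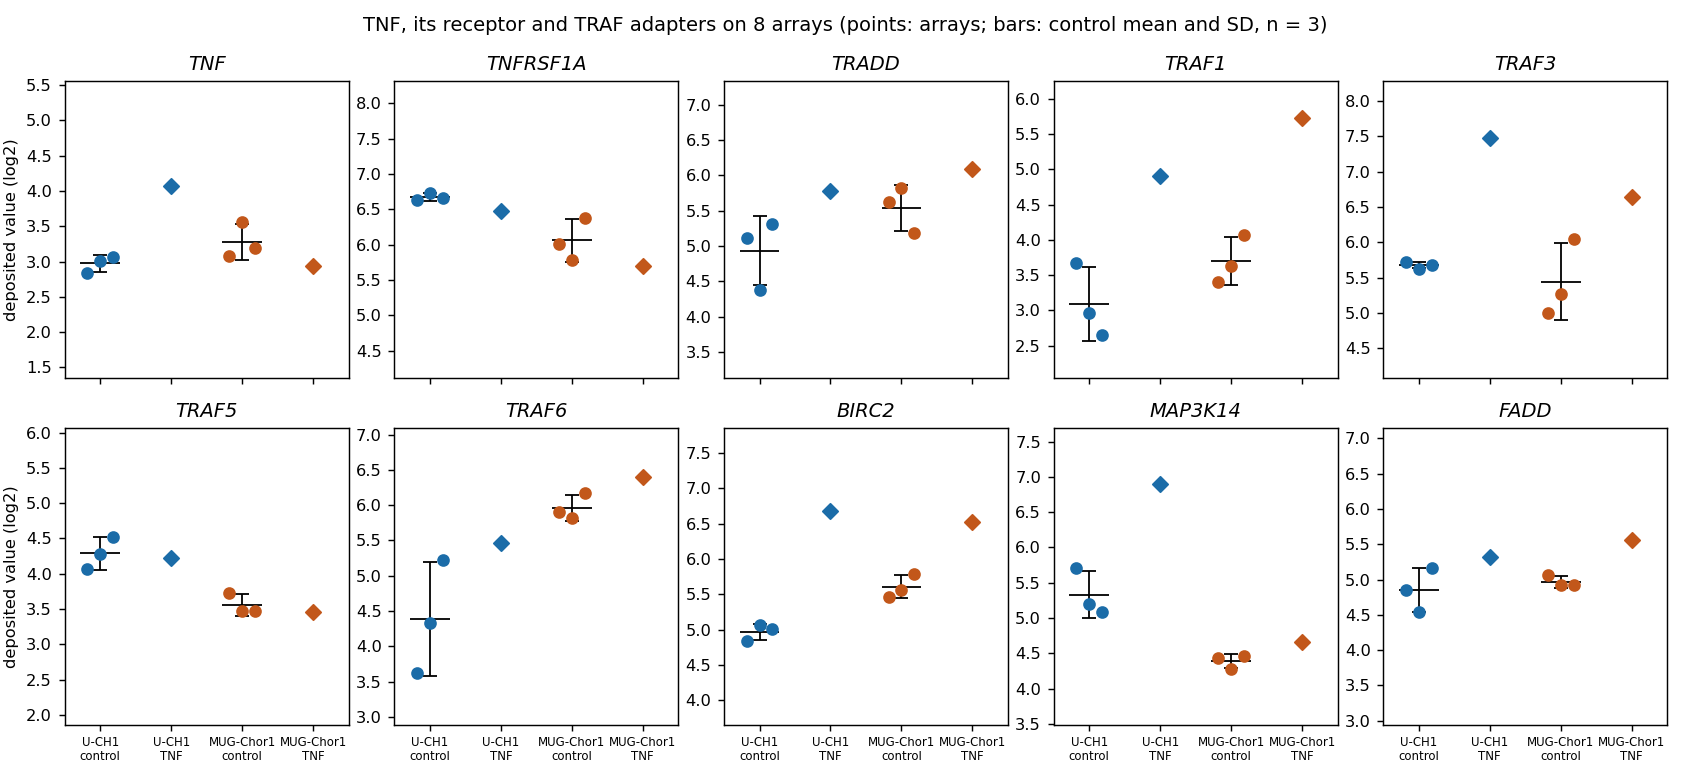
Deposited log2 value of each of the 10 genes on each of the 8 arrays, circles for controls and diamonds for TNF-α arrays, blue for U-CH1 and orange for MUG-Chor1. Black bars give the control mean and SD (n = 3), every panel spans the same number of log2 units, and the diamonds of TRAF1, TRAF3 and BIRC2 stand above all controls of their line.

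The TRAF adapters link receptors to kinases and ligases, and 2 of the 4 among these 10 genes rose. TRAF4 and TRAF7, tested outside the 10, did not pass across both lines, at -0.32 (limma adjusted p = 0.596) and 0.59 (limma adjusted p = 0.155). TRAF1, an adapter without the RING domain that the other TRAF proteins carry, read 3.67, 2.96 and 2.65 on the U-CH1 controls and 4.90 on the U-CH1 TNF-α array. In MUG-Chor1 it read 3.40, 3.63 and 4.06 on controls and 5.73 with TNF-α. Both TNF-α arrays lay above every control of either line. TRAF1 rose 3.78-fold across both lines (log2 1.92 ± 0.27, SE; limma adjusted p = 0.00584), and the call ended without the MUG-Chor1 TNF-α array (log2 1.81, adjusted p = 0.0604).

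TRAF3, which holds NIK down and also serves antiviral signalling, was almost level on the U-CH1 controls at 5.72, 5.63 and 5.68 and read 7.47 on the U-CH1 TNF-α array. The MUG-Chor1 controls were more spread, at 5.002, 5.27 and 6.05, the last being control 3, and the TNF-α array read 6.64. Each TNF-α array was above the controls of its line. The rise was 2.82-fold across both lines (log2 1.496 ± 0.27, SE; limma adjusted p = 0.0186), and the call ended without the U-CH1 TNF-α array (log2 1.195, adjusted p = 0.151).

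TRAF5, which works beside TRAF2 in NF-kB activation, gave no such separation. Its U-CH1 controls read 4.06, 4.28 and 4.52 and its U-CH1 TNF-α array 4.23, inside their range. In MUG-Chor1 the controls read 3.73, 3.48 and 3.47 and the TNF-α array 3.46. TRAF5 stood at a log2 fold change of -0.08 across both lines, with a 95% interval of -0.50 to 0.34 (limma adjusted p = 0.891).

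TRAF6, best known downstream of interleukin-1 and Toll-like receptors, was the least repeatable of the 10 on U-CH1 controls. It read 3.62, 4.33 and 5.23 there, and 5.46 with TNF-α. The MUG-Chor1 controls read 5.91, 5.82 and 6.17, and the TNF-α array 6.40. Both TNF-α arrays were above their controls, in U-CH1 by little against a control SD of 0.81. The log2 fold change across both lines was 0.75 ± 0.35 (SE; limma adjusted p = 0.332) and did not pass.

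BIRC2 encodes cIAP1, the ligase that ubiquitinates receptor-bound kinases and, with TRAF3, NIK. U-CH1 controls read 4.84, 5.06 and 5.001 and the U-CH1 TNF-α array 6.67, while MUG-Chor1 controls read 5.47, 5.57 and 5.79 and the MUG-Chor1 TNF-α array 6.52. Controls were tight in both lines, with an SD of 0.12 and 0.17 (n = 3 each), and both TNF-α arrays stood above every control of either line. BIRC2 rose 2.48-fold (log2 1.31 ± 0.22, SE; limma adjusted p = 0.0124). Without the U-CH1 TNF-α array the value was 0.92 and the call ended (adjusted p = 0.124).

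MAP3K14, the gene of NIK, differed between the lines before any treatment. U-CH1 controls read 5.71, 5.20 and 5.08 and the TNF-α array 6.90. MUG-Chor1 controls read 4.43, 4.28 and 4.47, and the TNF-α array 4.66. The separation from controls was thus wide in U-CH1 and narrow in MUG-Chor1. Across both lines the log2 fold change was 0.92 ± 0.28 (SE; limma adjusted p = 0.129), which passed in the alternative that averages the effects of the lines in a model of 4 group means (adjusted p = 0.0380) and without the MUG-Chor1 TNF-α array (log2 1.57, adjusted p = 0.0358).

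At the ligand and receptor, values moved little or in opposite ways. The TNF gene itself read 2.84, 3.01 and 3.07 on U-CH1 controls and 4.07 on the U-CH1 TNF-α array. MUG-Chor1 controls read 3.08, 3.56 and 3.19, and the TNF-α array 2.94. The treated array was therefore above all controls in U-CH1 and below all of them in MUG-Chor1, and all of these readings but that of U-CH1 with TNF-α lay within 1 log2 unit of that middle value. TNF had 8 probe sets, of which 7 held identical values, and the other one read 2.31 to 2.65 on U-CH1 controls, 3.48 on its TNF-α array, 2.36 to 2.74 on MUG-Chor1 controls and 2.69 on theirs. On that probe set the MUG-Chor1 TNF-α array lay inside the range of its controls. Across both lines the TNF transcript stood at 0.38 ± 0.29 (log2 fold change, SE; limma adjusted p = 0.585), and it turned to -0.33 without the U-CH1 TNF-α array.

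TNFRSF1A read 6.63, 6.74 and 6.66 on U-CH1 controls and 6.48 with TNF-α. MUG-Chor1 controls read 6.01, 5.79 and 6.38, and the TNF-α array 5.70. Both TNF-α arrays were below their controls by small margins. Its log2 fold change was -0.28 ± 0.20 (SE; limma adjusted p = 0.559), with a 95% interval of -0.71 to 0.16.

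The death-domain adapters TRADD and FADD each stood above their controls on both TNF-α arrays without passing the test. TRADD read 5.12, 4.38 and 5.31 on U-CH1 controls and 5.79 with TNF-α, and 5.62, 5.83 and 5.19 on MUG-Chor1 controls and 6.10 with TNF-α. FADD read 4.86, 4.53 and 5.16 on U-CH1 controls and 5.32 with TNF-α, and 5.07, 4.92 and 4.92 on MUG-Chor1 controls and 5.56 with TNF-α. The margins over the highest control were small for both genes. The log2 fold changes were 0.70 ± 0.27 for TRADD (SE; limma adjusted p = 0.230) and 0.53 ± 0.20 for FADD (SE; limma adjusted p = 0.228).

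Counted by range alone, 7 of the 10 genes (TRADD, TRAF1, TRAF3, TRAF6, BIRC2, MAP3K14 and FADD) had the TNF-α array above all 3 controls in both lines, where 15% of all genes tested did. TNFRSF1A was below all controls in both lines, as were 8.85% of genes tested. TNF was on opposite sides, as were 9.63%. By line, 8 of the 10 were above and 1 below the controls in U-CH1, where 54.3% of genes tested lay outside the control range (30.8% above and 23.4% below). In MUG-Chor1 7 were above and 3 below, where 59.2% lay outside (35.3% above and 23.9% below).

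Each line was then taken alone, in a model of 4 group means in which the single TNF-α array is assumed to vary like the 6 controls. In U-CH1, TRAF3, BIRC2 and MAP3K14 rose, 3 of 10 where 1.27% of genes tested were called (0.913% higher and 0.359% lower), and the median of the 10 was 1.09 against 0.04 for all genes tested. BIRC2 rose 3.26-fold (log2 1.71 ± 0.27, SE; limma adjusted p = 0.0132) and kept the call in all 11 alternatives run for it. TRAF3 rose 3.47-fold (log2 1.80 ± 0.37, SE; limma adjusted p = 0.0478). That call ended without the filter on low values (adjusted p = 0.0652) and without any 1 of the U-CH1 controls or MUG-Chor1 controls 1 or 2 (adjusted p up to 0.118). MAP3K14 rose 2.98-fold (log2 1.57 ± 0.30, SE; limma adjusted p = 0.0358), and its call ended with quantile normalization (adjusted p = 0.0513), with the 4 U-CH1 arrays alone (adjusted p = 0.0585) and without U-CH1 control 2 or 3 or MUG-Chor1 control 1 or 2 (adjusted p up to 0.0952). Leaving out U-CH1 control 2 or 3, or MUG-Chor1 control 1 or 2, left 1 of the 10 called. Over all genes tested these omissions left 104 to 173 called, against 216 as reported.

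TRAF1 did not pass in U-CH1 (log2 1.81 ± 0.40, SE; limma adjusted p = 0.0604). It passed without U-CH1 control 1, its highest U-CH1 control (adjusted p = 0.0453), and without MUG-Chor1 control 3 (adjusted p = 0.0363). The TNF transcript stood at 1.10 ± 0.28 (SE; limma adjusted p = 0.112), TRAF6 at 1.07 ± 0.48 and TRADD at 0.85 ± 0.39. FADD stood at 0.47 ± 0.30, TRAF5 at -0.06 ± 0.28 and TNFRSF1A at -0.19 ± 0.29 (SE), and none of these passed.

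In MUG-Chor1, TRAF1 was the single gene of the 10 that passed, where 2.88% of genes tested were called (1.47% higher and 1.41% lower). It rose 4.08-fold (log2 2.03 ± 0.40, SE; limma adjusted p = 0.0217), and the call ended without MUG-Chor1 control 1 (adjusted p = 0.0703), when 0 of the 10 were called by limma. TRAF3 stood at 1.195 ± 0.37 (SE; limma adjusted p = 0.151), and without MUG-Chor1 control 3 it stood at 1.501 and passed (adjusted p = 0.0138). BIRC2 stood at 0.92 ± 0.27 (SE; limma adjusted p = 0.124), FADD at 0.59 ± 0.30, TRADD at 0.55 ± 0.39 and MAP3K14 at 0.27 ± 0.30. TRAF6 stood at 0.44 ± 0.48, TRAF5 at -0.10 ± 0.28, the TNF transcript at -0.33 ± 0.28 and TNFRSF1A at -0.36 ± 0.29 (SE), and none of these passed. The median of the 10 was 0.49, against 0.06 for all genes tested.

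**Figure D2:**
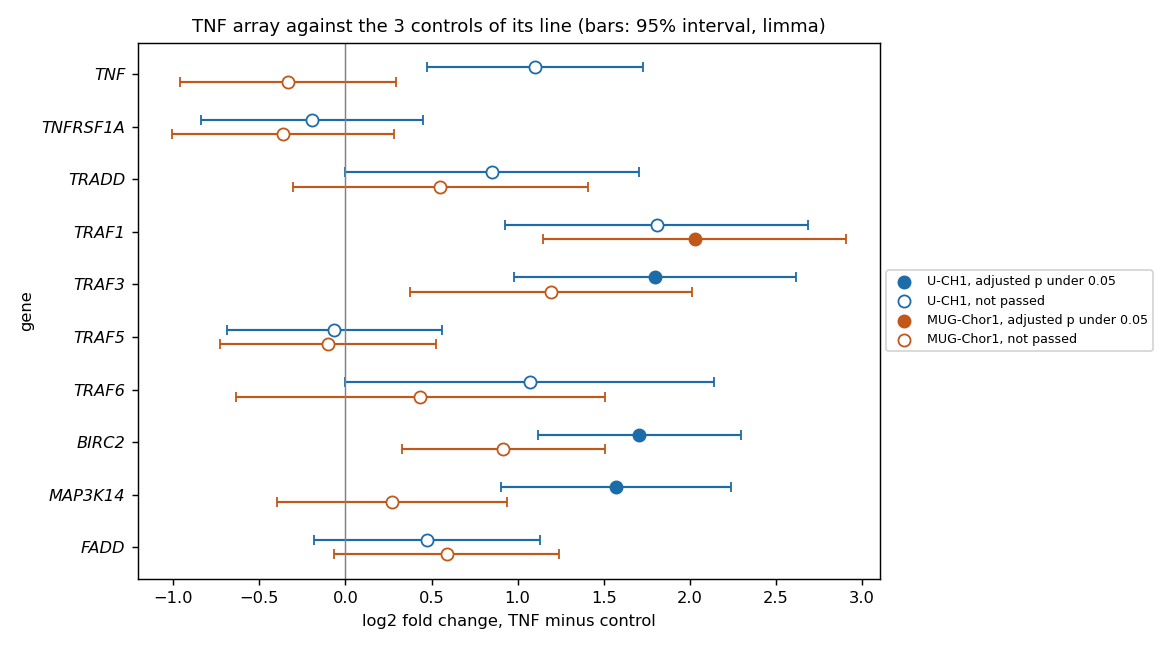
Log2 fold change of the TNF-α array against the 3 controls of its line for each of the 10 genes, with 95% intervals from limma, blue for U-CH1 and orange for MUG-Chor1. Filled points passed adjusted p 0.05: TRAF3, BIRC2 and MAP3K14 in U-CH1 and TRAF1 in MUG-Chor1.

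Whether the lines differed in these effects was tested as an interaction, MUG-Chor1 minus U-CH1. By limma 0 of the 10 were called, where 0.53% of genes tested were (0.2% higher and 0.33% lower). At an unadjusted p under 0.05, 2 of the 10 were lower and 0 higher, where 7.36% of genes tested passed in either direction. The 2 were the TNF transcript, whose effects differed by -1.44 ± 0.40 (SE; limma adjusted p = 0.228), and MAP3K14, at -1.30 ± 0.43 (SE; limma adjusted p = 0.368). For BIRC2 the difference was -0.79, with a 95% interval of -1.62 to 0.04. The intervals were wide elsewhere too, for TRAF1 from -1.03 to 1.47 and for TRAF3 from -1.76 to 0.56, and those of TRAF6 (-0.63), TRADD (-0.30), TNFRSF1A (-0.17), TRAF5 (-0.04) and FADD (0.12) also spanned 0. The interval of MAP3K14, -2.25 to -0.36, and that of the TNF transcript, -2.32 to -0.55, did not span 0 before adjustment over all genes. Whether the lines differ in these effects was thus not resolved by these arrays. Of the 6 other lists of pathway genes described below, 0 genes passed for the difference in limma (in each list at most 1 higher and at most 3 lower at unadjusted p under 0.05), and the smallest p of each list belonged to TNFRSF11A (1.23), TNFAIP3 (-0.75), IRAK1 (1.30), TAB3 (0.90), MLKL (1.03) and NFKBIA (-2.16).

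Untreated, the lines differed in several of these genes. Of the 10, TRAF6 and BIRC2 were higher and TRAF5 and MAP3K14 lower in MUG-Chor1 than in U-CH1, 4 of 10 where 18.9% of genes tested were called (10.3% higher and 8.57% lower). At an unadjusted p under 0.05, 6 of 10 differed, where 31.7% of genes tested did. The 3 control arrays of one line did not overlap those of the other for 6 of the 10 (3 in each direction), against 36.3% of genes tested (18.1% higher in MUG-Chor1 and 18.2% higher in U-CH1). TRAF6 differed most, 2.98-fold higher in MUG-Chor1 (log2 1.57 ± 0.34, SE; limma adjusted p = 0.00949), and MAP3K14 was 1.91-fold lower (log2 -0.94 ± 0.21, SE; limma adjusted p = 0.0119). Both kept the call in the 12 alternatives run, but not all of these could change it. The fit of the 6 controls without a block repeats the main fit, and averaging probe sets left both genes' values unchanged, as each had 1.

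TRAF5 was 1.66-fold lower in MUG-Chor1 (log2 -0.73 ± 0.20, SE; limma adjusted p = 0.0280). BIRC2 was 1.56-fold higher (log2 0.64 ± 0.19, SE; limma adjusted p = 0.0379). TRAF5's call ended without U-CH1 control 2 or 3 or any 1 of the MUG-Chor1 controls (adjusted p up to 0.0997). BIRC2's ended without any 1 of the 6 controls (adjusted p up to 0.110) and with the replicate number as a block (adjusted p = 0.0506). Without U-CH1 control 2 or 3, or MUG-Chor1 control 1 or 2, 2 of the 10 were called. Over all genes tested these omissions left 2123 to 2640 called, against 3209 as reported. TNFRSF1A stood at -0.61 ± 0.21 (SE; limma adjusted p = 0.0625), with no overlap of the control arrays, and passed without MUG-Chor1 control 3 (adjusted p = 0.0260) and with quantile normalization (adjusted p = 0.0496). The remaining genes did not pass: TRADD at 0.61, TRAF1 at 0.61, TNF at 0.30, FADD at 0.12 and TRAF3 at -0.24 (limma adjusted p of 0.153 to 0.746).

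**Figure D3:**
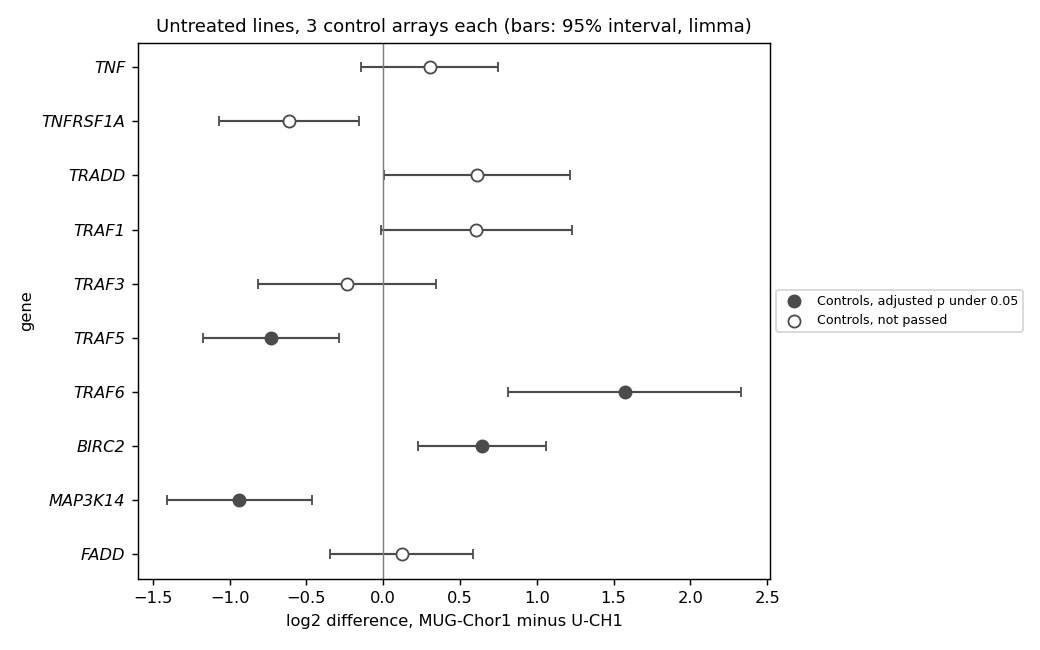
Log2 difference between untreated MUG-Chor1 and untreated U-CH1 for each of the 10 genes, 3 control arrays a line, with 95% intervals from limma. Filled points passed adjusted p 0.05: TRAF6 and BIRC2 to the right of 0 and TRAF5 and MAP3K14 to the left.

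Ordered by mean within each gene, the 4 groups ran in different orders. TRAF6 was lowest on U-CH1 controls and highest with TNF-α in MUG-Chor1, and its U-CH1 TNF-α array (5.46) fell below all MUG-Chor1 controls (5.82 to 6.17). MAP3K14 on the MUG-Chor1 TNF-α array (4.66) fell below all U-CH1 controls (5.08 to 5.71). BIRC2 ended at 6.67 and 6.52 on the TNF-α arrays, from control means of 4.97 ± 0.12 and 5.61 ± 0.17 (SD, n = 3 each). TRAF3 control means of 5.68 ± 0.05 and 5.44 ± 0.55 (SD, n = 3 each) did not differ beyond their spread.

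The other genes of the pathway were taken from 6 lists. In the receptor complex and linear ubiquitin list, 9 of 15 genes were tested and 3 rose across both lines, the deubiquitinase gene CYLD and the feedback genes TNFAIP3 and TNIP1, with 0 lower. Of all genes tested, 1.55% were called higher across both lines and 0.93% lower. TNFAIP3, which encodes A20, read 4.75 to 4.99 on U-CH1 controls and 8.44 with TNF-α, and 4.65 to 5.58 and 8.03 in MUG-Chor1. It rose 9.25-fold across both lines (limma adjusted p = 0.000487). TNIP1, a partner of A20, rose by a log2 fold change of 1.54 and CYLD by 1.52. The call of TNIP1 ended without the U-CH1 TNF-α array (1.30, limma adjusted p = 0.0590) and that of CYLD without the MUG-Chor1 TNF-α array (1.21, limma adjusted p = 0.129). In U-CH1 TNFAIP3 (3.58) and TNIP1 (1.77) rose, the latter with adjusted p up to 0.0648 when 1 control was left out, and in MUG-Chor1 TNFAIP3 (2.84) and CYLD (1.83) rose. TRAF2, RIPK1 and BIRC3, closest partners of these genes, had no probe set naming a single gene and are not analysed here.

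Among genes of ligand shedding and TNF relatives, 11 of 14 were tested and 2 rose across both lines, where 1.55% of genes tested were called higher. The 2 were RHBDF2, which encodes an iRhom that carries the sheddase to the cell surface, at 1.44 ± 0.26 (SE), and ADAM17, the sheddase that frees TNF from the membrane, at 0.85 ± 0.18 (SE). ADAM17 read 6.45 to 6.76 on U-CH1 controls and 7.46 with TNF-α, and 6.95 to 7.03 and 7.87 in MUG-Chor1. Neither line alone gave a call among the 11 (limma, 0 in each), and at an unadjusted p under 0.05 there were 3 higher for U-CH1 and 4 higher for MUG-Chor1, where 10.8% and 12.6% of genes tested passed in either direction. Without either TNF-α array both calls therefore ended (limma adjusted p of 0.0829 and 0.121 for RHBDF2, 0.232 and 0.130 for ADAM17). ADAM17's also ended without U-CH1 control 1 or MUG-Chor1 control 1 or 2 (adjusted p up to 0.0774).

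Of 13 tested TRAF relatives and partners, 1 rose across both lines, where 1.55% of genes tested were called higher. It was IKBKE, a kinase gene of the IKK family, which rose by 1.56 across both lines and by 1.84 in U-CH1, and the other 12 did not pass. The call across both lines ended without the U-CH1 TNF-α array (1.28, limma adjusted p = 0.118), and the call in U-CH1 without the filter on low values (adjusted p = 0.0553) and without any 1 of the U-CH1 controls or MUG-Chor1 control 1 or 2 (adjusted p up to 0.113). Of 14 TAK1, IKK and MAP kinase genes, 1 fell across both lines and 0 rose, where 0.93% of genes tested were called lower. It was MAP2K6, an activator of p38, which fell by 2.24 on the log2 scale (limma adjusted p = 0.0131). Its call ended without either TNF-α array, with adjusted p = 0.0835 in U-CH1 alone and 0.0652 in MUG-Chor1 alone. MAP2K6 read 4.41 to 5.40 on U-CH1 controls and 2.76 with TNF-α, and 3.43 to 4.89 and 2.14 in MUG-Chor1. Of 7 death complex genes, 0 passed across both lines in limma, where 2.48% of genes tested did. At an unadjusted p under 0.05, 3 were higher, where 15.3% of genes tested passed in either direction. CFLAR, which encodes the caspase-8 inhibitor FLIP, came closest at 0.93 (limma adjusted p = 0.0597). By line, CASP10, an initiator caspase gene, had the smallest p of that list in U-CH1 (0.97, limma adjusted p = 0.136) and BIRC5, the survivin gene, in MUG-Chor1 (-1.20, limma adjusted p = 0.256).

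Of 10 NF-kB subunit and inhibitor genes, 4 rose across both lines and 0 fell, where 1.55% of genes tested were called higher and 0.93% lower. The 4 were NFKBIE at 1.69, RELB at 1.58, NFKB2 at 1.43 and NFKB1 at 1.14. Without the U-CH1 TNF-α array NFKBIE went from 3.23-fold to 1.82-fold and its call ended (limma adjusted p = 0.188), as did those of NFKB1 (0.82, adjusted p = 0.183) and RELB (1.25, adjusted p = 0.164). RELB's call also ended without the MUG-Chor1 TNF-α array (adjusted p = 0.0502) or MUG-Chor1 control 1 (adjusted p = 0.0509), and NFKBIE's without U-CH1 control 1 (adjusted p = 0.0534). NFKB2 kept its call in each of these omissions. NFKB2, whose product NIK signalling converts to the active subunit of the non-canonical branch, read 4.85 to 5.19 on U-CH1 controls and 6.59 with TNF-α, and 5.17 to 5.502 and 6.58 in MUG-Chor1. RELB, its partner, read 2.94 to 4.02 and 5.53, and 4.16 to 4.44 and 5.58. In U-CH1 4 of the 10 rose (0.913% of genes tested higher), NFKBIE at 2.52, NFKBIA at 2.00, NFKB2 at 1.58 and NFKB1 at 1.47. In MUG-Chor1 (1.47% higher) NFKB2 alone rose, at 1.28. Of these, NFKBIA, NFKB2 and NFKB1 in U-CH1 and NFKB2 in MUG-Chor1 lost the call when some single controls were left out (limma adjusted p up to 0.0571, 0.0636, 0.0713 and 0.108). With the 4 arrays of a line alone the calls of NFKB1 in U-CH1 (adjusted p = 0.0529) and NFKB2 in MUG-Chor1 (adjusted p = 0.0718) ended too, the latter also with quantile normalization (adjusted p = 0.0551). NFKBIA stood at -0.15 in MUG-Chor1 (limma adjusted p = 0.935), and the difference of its effects was -2.16 ± 0.47 (SE; limma adjusted p = 0.0976). The list medians across both lines were 0.78 for NF-kB genes, 0.49 for the receptor complex, 0.29 for the death complex, 0.24 for TRAF partners, 0.20 for shedding and relatives and 0.19 for the kinases.

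**Figure D4:**
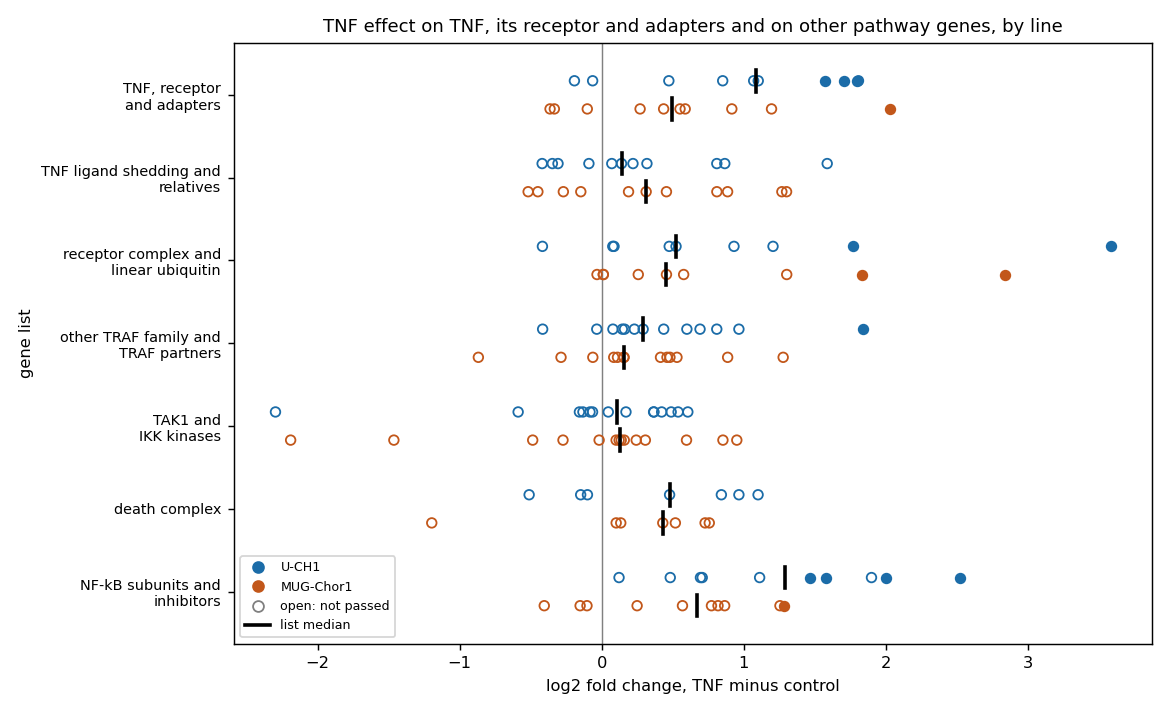
Log2 fold change of the TNF-α array against its controls for every tested gene of the 10 and of the 6 other lists, U-CH1 above MUG-Chor1 in each row. Filled points passed adjusted p 0.05 and black bars are list medians, 1.09 for the 10 genes in U-CH1, against 0.49 for them in MUG-Chor1.

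The genes whose values followed each of the 10 most closely over the 8 arrays were found by Pearson correlation, as a description, since line and treatment shape all such profiles. TRAF3 was followed most closely by TNFRSF9 (r = 0.992), which encodes the TNF receptor family member 4-1BB and read 2.07 to 2.39 on U-CH1 controls and 4.65 with TNF-α, and 1.54 to 2.52 and 3.58 in MUG-Chor1. On MUG-Chor1 control 3, both were higher than on controls 1 and 2. Every TNFRSF9 control read below 2.57, so only the TNF-α arrays brought that gene into the tested set. After TNFRSF9 came SLC16A13 (r = 0.982) and FPR3 (r = 0.977). FPR3 exceeded 2.57 only on the U-CH1 TNF-α array (2.64). BIRC2 was followed by OPTN (r = 0.970), GTF3C2 (r = 0.968) and C22orf46P (r = 0.967), and TRAF1 by ADO (r = 0.983), LIAT1 (r = 0.973) and HDX (r = 0.966). OPTN, the optineurin gene, read 5.41 to 5.79 on U-CH1 controls and 6.92 with TNF-α, and 5.93 to 5.99 and 6.78 in MUG-Chor1.

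For MAP3K14 the closest were CCDC22, ELAVL2 and EPOP (r of 0.985 each), and for the TNF transcript CNST (r = 0.978), IFITM1 (r = 0.954) and FGF22 (r = 0.946). FGF22 exceeded the 2.57 of the filter only on the U-CH1 TNF-α array (2.96). TNFRSF1A was followed by FSTL1 (r = 0.990), LRP11 (r = 0.989) and MUC1 (r = 0.984), TRAF5 by HSD17B14 (r = 0.988), GAP43 (r = 0.987) and SEPTIN6 (r = 0.985), and TRAF6 by C2orf42 (r = 0.991), PEPD (r = 0.977) and NSUN4 (r = 0.974). TRADD was followed by CCDC71 (r = 0.986), YBEY (r = 0.978) and GPX4 (r = 0.965), and FADD by TMEM205 (r = 0.978), NPRL2 (r = 0.974) and GOSR1 (r = 0.968). None of the 10 was among the 3 closest genes of another. With 8 arrays and 16986 genes, high correlations are found for any profile.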

How the data were processed

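Total RNA of 8 samples was labelled as biotinylated single-stranded cDNA for whole-transcript arrays, per the labels' protocols. The table the authors deposited covers 53617 probe sets on the 8 arrays, in values taken here as log2. It came from RMA in Transcriptome Analysis Console, per the submitters' processing notes; tool versions, the log base, genome build and scanner background are not given in the sources used here. RMA as usually run gives the arrays a common distribution, which hides any shift common to every gene. No detection calls or scan batches were used, so a batch that runs with TNF-α cannot be told apart from it. Precision is limited by there being 8 arrays. Array medians were 2.52 to 2.63.

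Of the probe sets, 23871 named 1 gene, 1842 named several and 27904 were not listed in the platform annotation. Entrez identifiers matched 22569 to a RefSeq table (GRCh38.p14), which updated 90 symbols. For each gene the brightest probe set on average was kept, and genes above 2.57 on at least 1 array were tested with limma 3.58.1 in R 4.3.3 (lmFit, eBayes), with 5 residual degrees of freedom in the additive model and 4 in the model of group means. Levels are not compared between genes. Fits were tested on simulated data.

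The 10 genes, the lists and the tests were chosen with earlier results of these data known. The rule for named genes took all 10 in every comparison; of each list, up to 4 called genes by size, or where none was called the one with the smallest p; NFKBIA and TNFAIP3 for TNF-α; and for each of the 10, the 3 genes of highest Pearson r. Control replicate numbers did not clearly pair the lines: deviations of same-numbered controls correlated at 0.04, -0.06 and 0.16. For U-CH1 control 3 the closest MUG-Chor1 control had the same number, and for controls 1 and 2 it did not. With 3 controls a line, this check cannot settle whether same-numbered controls were paired. Alternatives covered the filter, probe sets, normalization, variance model, samples, block and leaving out each array.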

Additional observations from a re-analysis of the deposited data

Results flagged for a closer look

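The TNF transcript was on opposite sides of the control range in the lines, above all 3 controls in U-CH1 (log2 fold change 1.10) and below all 3 in MUG-Chor1 (log2 fold change -0.33). The difference of these effects, MUG-Chor1 minus U-CH1, was -1.44 ± 0.40 (SE; limma adjusted p = 0.228) and did not pass, and 9.63% of genes tested had opposite sides in this way. Each line has 1 TNF-α array, and on the other distinct TNF probe set the MUG-Chor1 array (2.69) lay inside its control range (2.36 to 2.74).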

How the results depend on the processing

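Leaving out 1 array at a time gave 1 to 3 of the 10 genes called across both lines, 1 to 4 in U-CH1, 0 to 2 in MUG-Chor1, 0 for the difference of effects in limma and 2 to 3 between control lines. Over all genes tested it gave 199 to 489 called across both lines (422 as reported), 104 to 329 in U-CH1 (216), 284 to 664 in MUG-Chor1 (489), 38 to 152 for the difference (90) and 2123 to 3090 between control lines (3209). Averaging the effects of the lines in the model of group means gave 739 genes across both lines, and fitting the 4 MUG-Chor1 arrays alone gave 296 there. With the replicate number as a block, 3 of the 10 and 3248 genes were called between control lines, BIRC2 losing its call, and with 1 TNF-α array a line no TNF-α effect could be paired. Signs turned in a few of these omissions. Across both lines the TNF transcript ran from -0.33 (without the U-CH1 TNF-α array) to 1.10 and NFKBIA from -0.15 (without the same array) to 2.00. With 1 TNF-α array a line, each of these ends is the effect of a single line. TRAF5 in U-CH1 ran from -0.178 to 0.0524 (without U-CH1 control 3), and FADD between control lines from -0.0382 (without U-CH1 control 2) to 0.277. In the difference of effects, TRAF1 ran from -0.0671 (without U-CH1 control 1) to 0.441, FADD from -0.0412 (without U-CH1 control 3) to 0.274, and TRAF5 turned to 0.0763 without U-CH1 control 1 and 0.05 without MUG-Chor1 control 1. None of the values that turned sign was called in either form. Why the lines and arrays differed in these ways was not tested. Of the recomputed values of the 10 genes, 528 kept their direction and side of the threshold, 28 lost a call, 7 gained one and 7 turned sign. Only a value called as reported could lose a call, and many of the 528 were not called. Between control lines TRAF6 and MAP3K14 kept their calls in all 12 alternatives, TRAF5 in 7 and BIRC2 in 5. Averaging probe sets could change the values of TNF alone, since the other genes had 1 probe set each. Omissions of a TNF-α array, no separate check, are counted too.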

Other observations

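Some other genes of the pathway also differed between the untreated lines, where 18.9% of genes tested were called (10.3% higher and 8.57% lower). Of 11 tested genes of shedding and relatives, 1 was higher and 2 were lower in MUG-Chor1. In the receptor complex list 1 of 9 was higher. Lower were 1 of 13 TRAF partners, 1 of 14 kinases and 2 of 7 death complex genes. These counts describe the lists and do not set the pathway apart from genes in general. TIMP3, an inhibitor of the TNF sheddase, was 6.17-fold higher in MUG-Chor1 (log2 2.62 ± 0.24, SE; limma adjusted p = 5.53e-05), with controls at 5.90 to 6.81 against 3.68 to 3.92 in U-CH1. MLKL, the executor of necroptosis, was 3.24-fold lower in MUG-Chor1 (limma adjusted p = 0.000179), at 4.89 to 5.04 against 6.53 to 6.88. Of 10 NF-kB subunit and inhibitor genes, 4 were higher in MUG-Chor1 and 0 lower, NFKBIZ by 2.24, NFKBIA by 1.495, NFKBIE by 0.87 and NFKB1 by 0.79, where 10.3% of genes tested were called higher. RHBDF1 was lower by a log2 difference of -1.31, MAP3K5 by -1.42, IRAK1 by -1.002, BID by -0.76 and LTBR by -0.68, and CYLD was higher by 0.98. The calls of CYLD (without U-CH1 control 1, limma adjusted p = 0.0557), NFKB1 (without MUG-Chor1 control 1, adjusted p = 0.0706) and NFKBIE (without MUG-Chor1 control 2, adjusted p = 0.0551) ended when 1 array was left out.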
